A study of Homo sapiens with 8 samples.

Results

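The lysosomal genes described here were 36 symbols given as a list of regulators, luminal enzymes, sterol transfer proteins, membrane proteins and subunits of the proton pump. They were found by symbol in a table of 18406 genes, and all 36 were present. The cells were 92.1, a long-established line from a human uveal melanoma, sequenced as bulk RNA 24 h after adding 10 nM trametinib (an inhibitor of the kinases MEK1 and MEK2), 10 nM panobinostat (an inhibitor of histone deacetylases), both drugs, or the vehicle DMSO. Each of the 4 groups had 2 libraries. All groups were grown in the same medium with serum, and each result is from this 1 line in culture. By their sample numbers, the panobinostat and combination libraries were registered apart from the vehicle and trametinib libraries. Any difference in handling between these sets cannot be told apart from panobinostat in panobinostat or combination against vehicle, or in the combination against trametinib. The treatment label of the combination gives 10 nM once for both drugs, so that each was at that dose is an assumption, and the panobinostat and combination labels carry the tag MEKi, which names a MEK inhibitor, after panobinostat. Whether the 2 libraries of a group are separate cultures is not stated in the labels, and the p-values reflect only library-to-library spread, which could be technical.

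Lysosomes are acidic compartments in which proteins, glycans, lipids and nucleic acids are broken down. A vacuolar ATPase (V-ATPase) pumps protons into the lumen, hydrolases delivered from the Golgi apparatus cut the cargo there, and membrane proteins export the products and protect the limiting membrane. The transcription factors TFEB and TFE3, relatives of the melanocyte factor MITF, bind an E-box of the CLEAR type (coordinated lysosomal expression and regulation) near the start of many lysosomal genes. They are held in the cytoplasm when the kinase complex mTORC1 is active at the lysosomal surface, a step that transcript levels do not report. In pigment cells the melanosome is a lysosome-related organelle and shares several of these proteins, CD63 among them.

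Of the 36 genes, 22 had a promoter window in RefSeq (GRCh38.p14), from 250 bases before to 50 after an annotated start site. The 8-base core of the CLEAR element, TCACGTGA, is its own reverse complement, as is the E-box CACGTG inside it, so both strands were covered at once. The core was present in windows of 6 of the 22 genes (27.3%), against 1.18% of 27305 symbols and 0.980% of all 35116 windows. CACGTG was present for 9 of 22 (40.9%), against 8.77% of symbols and 7.26% of windows. The genes with the core are shown because it is the sequence by which TFEB and TFE3 are known to act. Each stretch runs 5′ to 3′ on the gene's strand, from 20 bases before the first core to 20 after the last, with the core in capitals.

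GAA, chr17:80101484-80101576, plus strand: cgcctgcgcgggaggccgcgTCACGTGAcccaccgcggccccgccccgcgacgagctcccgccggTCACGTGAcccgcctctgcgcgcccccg 
LAMP1, chr13:113297190-113297264, plus strand: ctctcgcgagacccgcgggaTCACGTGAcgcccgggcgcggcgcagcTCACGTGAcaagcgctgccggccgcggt 
MCOLN1, chr19:7522562-7522636, plus strand: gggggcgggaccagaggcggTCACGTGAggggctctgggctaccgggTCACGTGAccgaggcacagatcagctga 
CTSA, chr20:45891289-45891336, plus strand: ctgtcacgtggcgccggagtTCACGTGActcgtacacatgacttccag 
CLN3, chr16:28492049-28492096, minus strand: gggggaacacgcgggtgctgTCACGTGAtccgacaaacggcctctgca 
ATP6V0D1, chr16:67481190-67481237, minus strand: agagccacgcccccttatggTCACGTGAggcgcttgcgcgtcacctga

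GAA, LAMP1 and MCOLN1 hold 2 cores each and the others 1. A match is a description of the letters, not evidence of binding. The element is named for lysosomal genes, so its higher share among them is not an independent result. The windows of TPP1, LIPA, NPC1, NPC2, CD68 and ATP6V0A1, among others, held no core. Whether the core goes with the changes described below was not tested.

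The deposited values are normalised read counts, called normalised signal here, and are comparable for a gene between libraries. No gene lengths were applied, so levels are not compared between genes. Recovered reads ran from 6897784 to 16861001 per library. Trametinib replicate 2 stood apart, with 5362 genes at 0 against 3743 in trametinib replicate 1 and 2222 to 2890 in the other 6 libraries. The 7 melanocyte lineage markers summed to 167229 to 175142 with trametinib, 99938 to 103741 with panobinostat, 137486 to 138966 with the combination and 103558 to 111479 in vehicle. TYRP1 and PMEL make up most of these sums, and the markers did not all move alike. Both trametinib libraries lay above both vehicle libraries for all 7, panobinostat above for MITF, SOX10 and TYR and below for PMEL, MLANA and TYRP1, and the combination above for 5 and below for MLANA. The part of these shifts in the results was not tested. CD68 and CTSS are also known from macrophages, whose markers PTPRC, CD14 and ITGAM (3 of 8 listed, the others not analysed here) summed to at most 11.7 in any library, with ITGAM at 0 in all 8. In bulk RNA, fewer cells of a type and less RNA per cell cannot be told apart.

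Changes are differences in log2(value + 1) with their standard error (SE), from limma fitted to the 13320 genes that averaged 10 or more over the 8 libraries. The threshold was an adjusted p under 0.05 (Benjamini-Hochberg, over all genes tested), and "passed" means by limma with all 8 libraries unless another tool or a left-out library is named. For 2 libraries against 2 the smallest two-sided p of an exact permutation test is 0.333, and limma instead uses a spread shared by the 4 groups. CTSS and ATP6V0D2 fell below the minimum, which left 34 of 36 genes tested. The median mean value of the 34 was 1350.0 and the median SE in trametinib against vehicle 0.0979, against 276 and 0.207 over all genes tested, so smaller changes could pass among them. How much of the difference from the background follows from that was not tested. In GENCODE v29, exons of 18 of the 36 genes overlap exons of another gene, 14 of them on the opposite strand. No source used here says whether counting used strand, so reads of such pairs may not be separable. Opposite-strand partners are annotated for ASAH1, ATP6V0D2, ATP6V1A, ATP6V1C1, CD63, CD68, CLN3, CTSA, CTSD, HEXA, NPC1, PPT1, SGSH and TPP1. Same-strand partners are annotated for 9 genes, ATP6V0A1, CD68, CLN3, CTSD, HEXA, MCOLN1, NAGLU, NPC2 and TPP1. Counting by strand alone would not separate the reads of these.

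Lysosomal transcripts were more often higher than lower with each treatment. With trametinib, 19 of 34 rose and 3 fell against vehicle, with 12 not passing, while 23.7% of all tested genes rose and 27.4% fell. With panobinostat, 11 rose and 2 fell, beside 15.0% and 15.6% of all genes. The combination had 19 higher and 3 lower, beside 24.5% and 25.5%. The median change of the 34 was 0.32 with trametinib, 0.11 with panobinostat and 0.30 with the combination, against -0.07, 0.0021 and 0.03 over all genes. The 3 comparisons share the vehicle libraries. Of the 34 genes, 10 passed as higher in all 3, namely TFEB, CTSB, TPP1, LIPA, PSAP, NPC1, NPC2, LAMP2, CD68 and ATP6V0A1. The share of all genes higher in all 3 was not computed, so this count has no background beside it. PPT1 passed as lower in all 3. NEU1, NAGLU, CD63, ATP6V1A and ATP6V1H passed in none of the 6 comparisons by limma. DESeq2 called NEU1 with trametinib (0.19), ATP6V1H with panobinostat (0.36) and CD63 with the combination (-0.16), each against vehicle, and CD63 in the combination against panobinostat (-0.19), where edgeR also called it (-0.20). Without trametinib replicate 2, 22 rose and 4 fell with trametinib, 15 and 4 with panobinostat, and 19 and 6 with the combination. In that fit 28.2% of all genes rose and 31.2% fell with trametinib, 25.3% and 25.8% with panobinostat, and 33.7% and 33.5% with the combination, and the remaining trametinib library was assumed to vary like the other groups. Without trametinib replicate 1, 4 fell with panobinostat and 6 with the combination, beside 25.8% and 33.3% of all genes. The rises with panobinostat numbered 7 without panobinostat replicate 1 or either vehicle library, where 7.99%, 8.08% and 7.73% of all genes rose. The falls with panobinostat numbered 1 without either panobinostat library or without vehicle replicate 2, and 0 by limma without vehicle replicate 1, where 2 had an unadjusted p under 0.05. In these fits 6.89% to 8.30% of all genes fell. No count tool was run on such subsets.

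**Figure D1:**
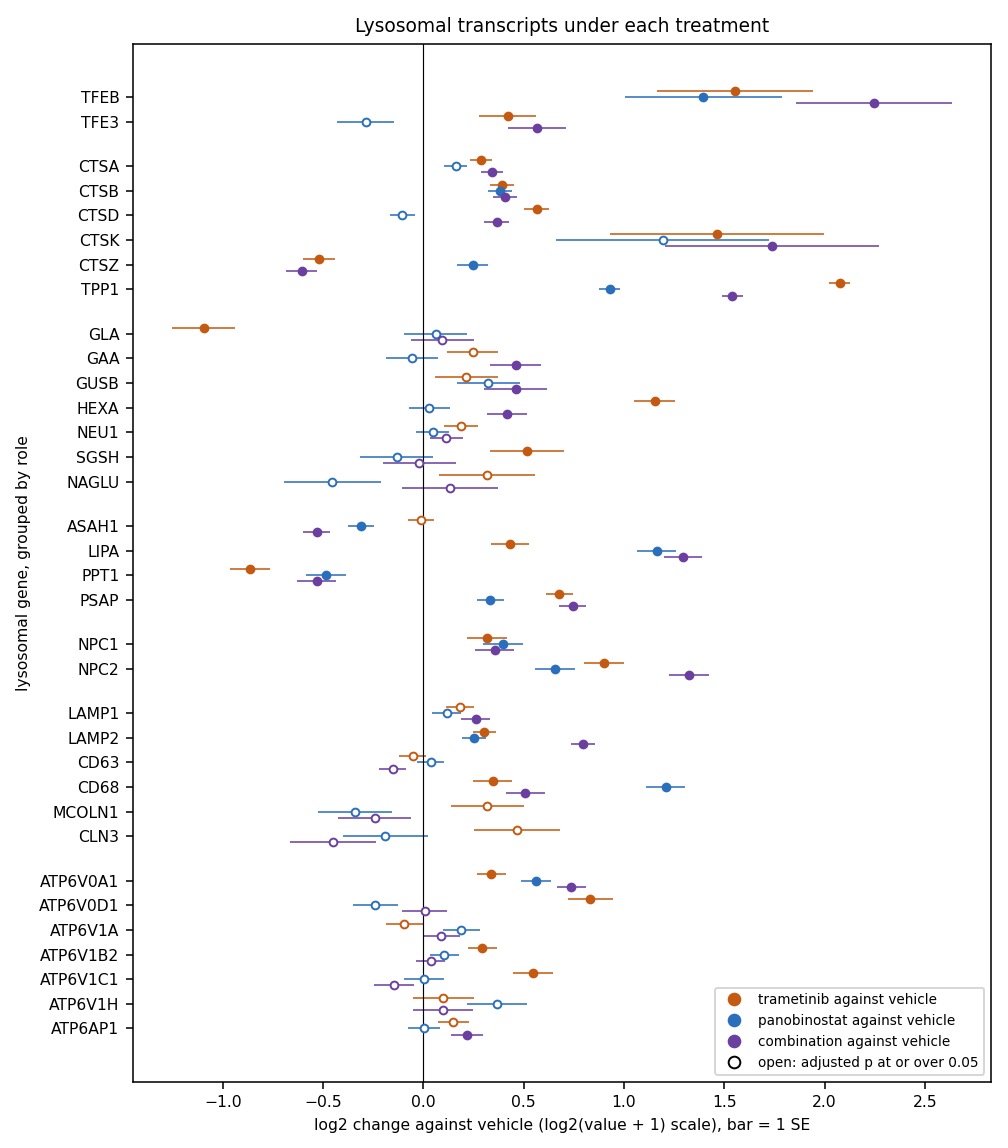
Log2 change of each of the 34 tested lysosomal genes (vertical axis, grouped by role) with trametinib, panobinostat and the combination against vehicle, with bars of 1 SE and 2 libraries per group. Filled points passed at an adjusted p under 0.05; most lie to the right of 0, with TFEB and TPP1 farthest right and GLA and PPT1 with trametinib farthest left.

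Both regulators passed in trametinib and in the combination. TFEB was at 65.2 and 56.3 with trametinib, 55.0 and 53.4 with panobinostat, 103 and 94.3 with the combination and 16.2 and 24.5 in vehicle. All 6 libraries given a drug lay above both vehicle libraries, and the combination libraries lay highest. Against vehicle, TFEB rose by 1.55 ± 0.39 with trametinib, 1.40 ± 0.39 with panobinostat and 2.25 ± 0.39 with the combination (limma adjusted p = 0.00846, 0.0234 and 0.00105). TFEB gave 27 to 88 reads per library, so its changes have wide errors. TFE3 was at 498 and 579 with trametinib, 311 and 347 with panobinostat, 544 and 649.6 with the combination and 382 and 421 in vehicle. The trametinib and combination libraries lay above vehicle and the panobinostat libraries below. TFE3 rose by 0.42 ± 0.14 with trametinib and 0.57 ± 0.14 with the combination (limma adjusted p = 0.0349 and 0.0089), while its panobinostat value of -0.29 ± 0.14 did not pass. With panobinostat as the baseline, TFE3 was higher in the combination by 0.85 ± 0.14 (limma adjusted p = 0.00232), and TFEB had 0.85 ± 0.39, which did not pass. That TFEB value passed without either trametinib library (0.85). The TFEB call in trametinib against vehicle ended without vehicle replicate 1 (1.27). TFEB no longer passed in panobinostat against vehicle without either panobinostat library (1.38 and 1.42) or either vehicle library (1.11 and 1.68). TFE3 did not pass in trametinib against vehicle without trametinib replicate 2 (0.31), either panobinostat library (0.42) or either vehicle library (0.35 and 0.49). The TFE3 call in the combination against vehicle ended without combination replicate 2 (0.44) or vehicle replicate 1 (0.50).

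Most proteases and carboxypeptidases rose with trametinib and with the combination. Of 6 tested, 5 rose, 1 fell and 0 did not pass with trametinib, 3 rose, 0 fell and 3 did not pass with panobinostat, and 5 rose, 1 fell and 0 did not pass with the combination. Among all genes tested, 23.7% rose and 27.4% fell with trametinib, 15.0% and 15.6% with panobinostat, and 24.5% and 25.5% with the combination. TPP1 is a tripeptidyl peptidase whose loss causes a neuronal ceroid lipofuscinosis. TPP1 was at 16951 and 18294 with trametinib, 8067 and 7839.8 with panobinostat, 12085 and 12214 with the combination and 4207 and 4148 in vehicle. No 2 of the 4 groups overlapped, with trametinib highest, then the combination, then panobinostat, then vehicle. TPP1 rose by 2.08 ± 0.052 with trametinib, 0.93 ± 0.052 with panobinostat and 1.54 ± 0.052 with the combination (limma adjusted p = 1.38e-08, 8.35e-06 and 8.18e-08), and it was the only 1 of the 34 to pass in all 6 comparisons. Cathepsin D is the main aspartic protease of the lumen. CTSD was at 7577 and 7982 with trametinib, 4806 and 4975 with panobinostat, 6449 and 7117 with the combination and 5227 and 5288 in vehicle. It rose by 0.56 ± 0.062 with trametinib and 0.37 ± 0.062 with the combination (limma adjusted p = 5.61e-05 and 0.000886) and had -0.10 ± 0.062 with panobinostat, which did not pass. The trametinib libraries lay above the combination libraries, and panobinostat was the lowest group. CTSB was at 3808 and 3707 with trametinib, 3706 and 3745 with panobinostat, 3945 and 3651 with the combination and 2835 and 2887 in vehicle. All 6 libraries given a drug lay above vehicle, and this cysteine protease rose by 0.39 ± 0.060 with trametinib, 0.38 ± 0.060 with panobinostat and 0.41 ± 0.060 with the combination (limma adjusted p = 0.000499, 0.00152 and 0.000401). CTSA, a carboxypeptidase that also protects the sialidase NEU1 and beta-galactosidase, carries a CLEAR core. CTSA was at 3805 and 3756 with trametinib, 3501 and 3419 with panobinostat, 3856 and 3998 with the combination and 3118 and 3073 in vehicle. No 2 groups overlapped, with the combination highest and vehicle lowest. It rose by 0.29 ± 0.055 with trametinib and 0.34 ± 0.055 with the combination (limma adjusted p = 0.00195 and 0.000692) and had 0.16 ± 0.055 with panobinostat, which did not pass by limma and passed with DESeq2 (0.15). The panobinostat value of CTSA also passed without either trametinib library (0.16).

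CTSZ, a carboxypeptidase of the papain family, fell with trametinib and with the combination and rose with panobinostat. CTSZ was at 2069 and 1851 with trametinib, 3414 and 3246 with panobinostat, 1846 and 1841 with the combination and 2671 and 2953 in vehicle. The trametinib and combination libraries lay below vehicle and the panobinostat libraries above it. It changed by -0.52 ± 0.079 with trametinib, 0.25 ± 0.079 with panobinostat and -0.61 ± 0.079 with the combination (limma adjusted p = 0.000465, 0.042 and 0.000179). CTSK and CTSS, cysteine proteases best known from osteoclasts and antigen-presenting cells, had few reads. CTSK was at 73.2 and 33.2 with trametinib, 53.0 and 31.3 with panobinostat, 65.6 and 54.8 with the combination and 15.0 and 19.8 in vehicle. The panobinostat libraries lay within the range of the trametinib libraries or below it, and all 6 libraries given a drug lay above vehicle. CTSK rose by 1.46 ± 0.53 with trametinib and 1.74 ± 0.53 with the combination (limma adjusted p = 0.044 and 0.0218), and its panobinostat value of 1.19 ± 0.53 did not pass. That value passed without either trametinib library (1.19). CTSS was at 35.1 and 26.1 with trametinib, 2.04 and 0 with panobinostat, 2.34 and 3.04 with the combination and 5.42 and 5.54 in vehicle. These were 35 and 26 reads with trametinib, 2 and 0 with panobinostat, 2 and 2 with the combination and 9 and 7 in vehicle. The trametinib libraries were the highest and did not overlap any other group. With no filter on low values, CTSS differed by -3.09 ± 0.79 in the combination against trametinib (limma adjusted p = 0.023) and by 2.27 ± 0.79 in trametinib against vehicle (limma adjusted p = 0.0531), the second of which did not pass. The CTSA call in the combination against panobinostat ended without either panobinostat library (0.20 and 0.17), either combination library (0.21 and 0.16) or either vehicle library (0.18), with no filter on low values (0.18), with TMM scaling (0.17), or with edgeR (0.17). CTSB no longer passed in the interaction without either panobinostat library (-0.37 and -0.36), combination replicate 2 (-0.31) or either vehicle library (-0.35 and -0.38). CTSD did not pass in the combination against trametinib without trametinib replicate 2 (-0.16), either panobinostat library (-0.20), combination replicate 1 (-0.13) or either vehicle library (-0.20), or with no filter on low values (-0.20). The CTSK call in trametinib against vehicle ended without trametinib replicate 1 (0.90), either panobinostat library (1.46), either combination library (1.46) or either vehicle library (1.28 and 1.65), or with no filter on low values (1.46). CTSK no longer passed in the combination against vehicle without either combination library (1.61 and 1.86) or either vehicle library (1.55 and 1.93). CTSZ did not pass in panobinostat against vehicle without either panobinostat library (0.21 and 0.28), either combination library (0.25) or either vehicle library (0.17 and 0.32), or with no filter on low values (0.25).

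**Figure D2:**
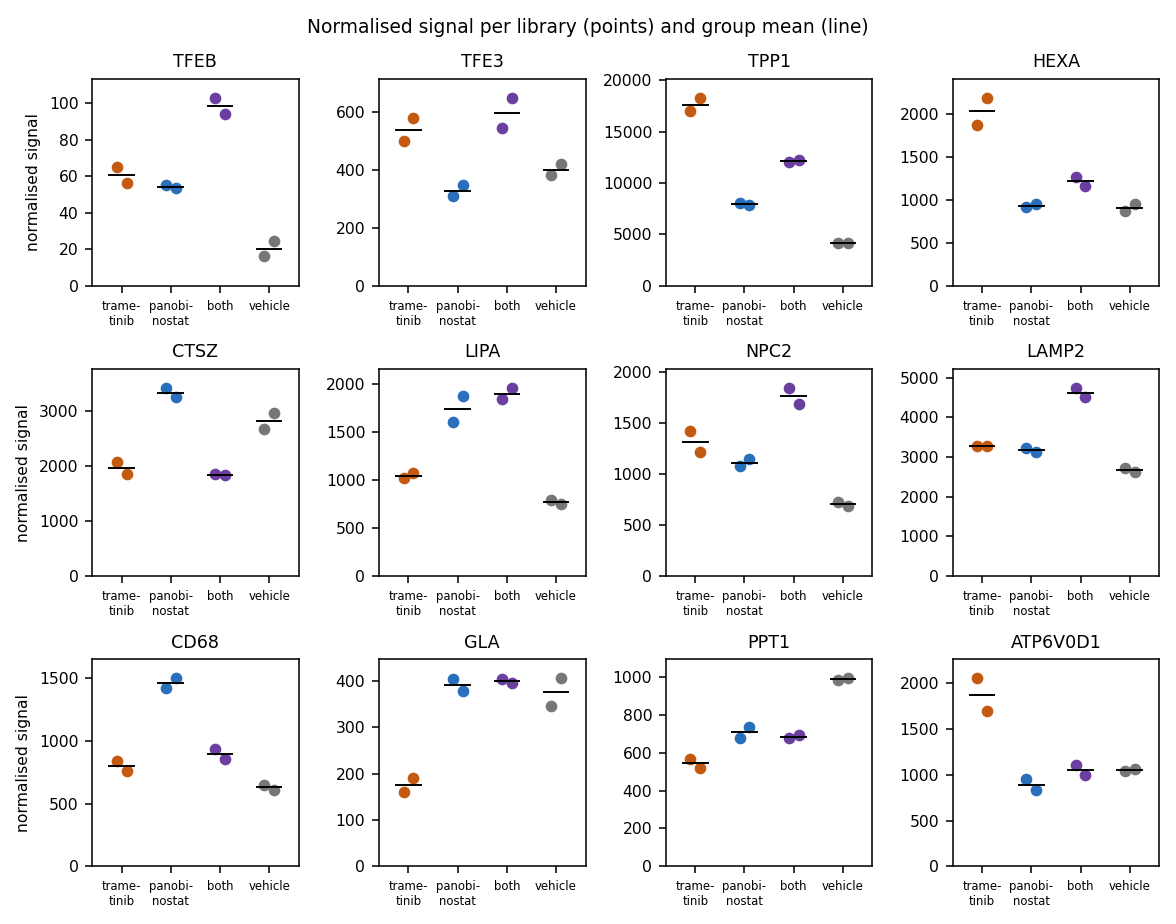
Normalised signal of 12 lysosomal genes in each of the 8 libraries (points; trametinib, panobinostat, both drugs, vehicle from left to right) with the mean of each group as a line; vertical axes start at 0. TPP1 is separated in all 4 groups, TFEB is highest with both drugs, CD68 is highest with panobinostat, and GLA is low with trametinib alone.

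Of the glycan-degrading enzymes, HEXA, SGSH and GLA passed with trametinib and GAA, GUSB and HEXA with the combination. With all 8 libraries, none passed with panobinostat alone, by limma at an adjusted or an unadjusted p under 0.05 (0 of 7), by edgeR or by DESeq2. Of 7 tested, 2 rose, 1 fell and 4 did not pass with trametinib, 0 rose, 0 fell and 7 did not pass with panobinostat, and 3 rose, 0 fell and 4 did not pass with the combination. Over all genes the shares were 23.7% higher and 27.4% lower with trametinib, 15.0% higher and 15.6% lower with panobinostat and 24.5% higher and 25.5% lower with the combination. HEXA encodes the alpha subunit of beta-hexosaminidase, which degrades gangliosides. HEXA was at 1868 and 2184 with trametinib, 910.3 and 946 with panobinostat, 1268 and 1161 with the combination and 868 and 951 in vehicle. The trametinib libraries lay above all others, and panobinostat overlapped vehicle. It rose by 1.15 ± 0.10 with trametinib and 0.42 ± 0.10 with the combination (limma adjusted p = 1.26e-05 and 0.00673). GLA, alpha-galactosidase A, the enzyme missing in Fabry disease, went the other way. GLA was at 159 and 191 with trametinib, 403 and 378 with panobinostat, 403 and 396 with the combination and 345 and 405 in vehicle. Both trametinib libraries lay far below the other 6, and GLA changed by -1.09 ± 0.16 with trametinib (limma adjusted p = 0.000333). With the combination its libraries lay within the range of vehicle (0.09 ± 0.16, not passing), and the combination was above trametinib by 1.19 ± 0.16 (limma adjusted p = 0.000471).

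GAA, the acid alpha-glucosidase that degrades glycogen, has 2 CLEAR cores. GAA was at 818 and 935 with trametinib, 701 and 719.9 with panobinostat, 913 and 1129 with the combination and 686 and 794 in vehicle. Only the combination passed against vehicle, at 0.46 ± 0.13 (limma adjusted p = 0.0146), with trametinib at 0.24 ± 0.13, which did not pass. GUSB was at 394 and 337 with trametinib, 370.0 and 417 with panobinostat, 423 and 443 with the combination and 349.7 and 282 in vehicle. With all 8 libraries GUSB, beta-glucuronidase, likewise passed only with the combination, at 0.46 ± 0.16 (limma adjusted p = 0.0348). It has pseudogene copies among which the counting may have split reads. SGSH and NAGLU act in heparan sulfate breakdown. SGSH was at 519 and 727 with trametinib, 356 and 429.5 with panobinostat, 462 and 386 with the combination and 413 and 446 in vehicle. SGSH passed with trametinib at 0.52 ± 0.18 (limma adjusted p = 0.039), with the replicates far apart. NAGLU was at 416 and 275 with trametinib, 171 and 229 with panobinostat, 293 and 303 with the combination and 312 and 236 in vehicle. The trametinib and combination libraries overlapped vehicle, the panobinostat libraries lay below it, and no comparison passed by limma. NEU1 was at 2134 and 1846 with trametinib, 1841 and 1761 with panobinostat, 1893 and 1877 with the combination and 1707 and 1779 in vehicle. NEU1, the sialidase, ranged from 1707 to 2134 over all libraries and passed in no comparison by limma. In trametinib against vehicle it passed with DESeq2 (0.19) and without trametinib replicate 2 (0.29), and NAGLU did without trametinib replicate 2 (0.61). Without either trametinib library NAGLU also passed in panobinostat against vehicle (-0.45) and in the combination against panobinostat (0.59). In those fits GUSB passed in panobinostat against vehicle too (0.32), and GAA passed in trametinib against vehicle without trametinib replicate 1 (0.34). The GLA call in the interaction ended without vehicle replicate 2 (1.01). GAA no longer passed in the combination against vehicle without combination replicate 2 (0.31) or vehicle replicate 1 (0.35). GAA did not pass in the combination against panobinostat without either panobinostat library (0.50 and 0.53) or combination replicate 2 (0.36). The GUSB call in the combination against vehicle ended without either panobinostat library (0.46), either combination library (0.49 and 0.43) or vehicle replicate 2 (0.31). HEXA no longer passed in the combination against vehicle without combination replicate 1 (0.35) or vehicle replicate 1 (0.35). HEXA did not pass in the combination against panobinostat without either panobinostat library (0.36 and 0.41) or either combination library (0.32 and 0.45). The SGSH call in trametinib against vehicle ended without trametinib replicate 2 (0.27), either panobinostat library (0.52), either combination library (0.52) or either vehicle library (0.46 and 0.57), or with no filter on low values (0.52). SGSH no longer passed in the combination against trametinib without trametinib replicate 2 (-0.29), either panobinostat library (-0.54), either combination library (-0.67 and -0.41) or either vehicle library (-0.54), or with no filter on low values (-0.54).

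Of 4 lipid hydrolases and activators, 2 rose, 1 fell and 1 did not pass with trametinib, 2 rose, 2 fell and 0 did not pass with panobinostat, and 2 rose, 2 fell and 0 did not pass with the combination. The shares of all genes were 23.7% higher and 27.4% lower with trametinib, 15.0% and 15.6% with panobinostat, and 24.5% and 25.5% with the combination. LIPA is the acid lipase that frees cholesterol from its esters. LIPA was at 1017 and 1070.0 with trametinib, 1598 and 1876 with panobinostat, 1840.3 and 1956 with the combination and 793 and 754 in vehicle. No 2 groups among trametinib, panobinostat and vehicle overlapped, and the combination overlapped panobinostat. LIPA rose by 0.43 ± 0.095 with trametinib, 1.16 ± 0.095 with panobinostat and 1.29 ± 0.095 with the combination (limma adjusted p = 0.0042, 3.87e-05 and 4.77e-06). PSAP, the precursor of the saposins that present sphingolipids to their hydrolases, rose in each arm. PSAP was at 9089 and 8248 with trametinib, 6983 and 6670.1 with panobinostat, 9155 and 9003 with the combination and 5159.6 and 5684 in vehicle. The trametinib and combination libraries overlapped and lay above panobinostat, which lay above vehicle. Its changes were 0.68 ± 0.067 with trametinib, 0.33 ± 0.067 with panobinostat and 0.75 ± 0.067 with the combination (limma adjusted p = 2.94e-05, 0.00513 and 1.68e-05). PPT1, which removes palmitate from proteins, fell in each arm. PPT1 was at 566 and 520.4 with trametinib, 676 and 737 with panobinostat, 675 and 691 with the combination and 984 and 992 in vehicle. All 6 libraries given a drug lay below vehicle, and PPT1 changed by -0.86 ± 0.099 with trametinib, -0.48 ± 0.099 with panobinostat and -0.53 ± 0.099 with the combination (limma adjusted p = 7.73e-05, 0.00562 and 0.00159). ASAH1 is acid ceramidase. ASAH1 was at 3913 and 3598 with trametinib, 3146 and 2946 with panobinostat, 2643 and 2583 with the combination and 3796 and 3762 in vehicle. It changed by -0.31 ± 0.065 with panobinostat and -0.53 ± 0.065 with the combination (limma adjusted p = 0.00639 and 0.000125), while the trametinib libraries lay on either side of vehicle (-0.01 ± 0.065, not passing).

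NPC1 and NPC2 hand cholesterol out of the lysosome, NPC2 from the lumen and NPC1 in the membrane, and both rose in every arm. NPC2 was at 1417 and 1214 with trametinib, 1074 and 1142 with panobinostat, 1840.3 and 1686 with the combination and 725 and 682 in vehicle. The groups did not overlap, with the combination highest and vehicle lowest. NPC2 rose by 0.90 ± 0.10 with trametinib, 0.66 ± 0.10 with panobinostat and 1.32 ± 0.10 with the combination (limma adjusted p = 6.16e-05, 0.00123 and 5.57e-06). NPC1 was at 835 and 788 with trametinib, 809 and 909 with panobinostat, 836 and 829 with the combination and 670.5 and 632 in vehicle. For NPC1 the 3 drug arms overlapped each other and all lay above vehicle, with rises of 0.32 ± 0.099 with trametinib, 0.40 ± 0.099 with panobinostat and 0.35 ± 0.099 with the combination (limma adjusted p = 0.0234, 0.0143 and 0.0141). The ASAH1 call in panobinostat against vehicle ended without panobinostat replicate 2 (-0.26) or vehicle replicate 1 (-0.31). ASAH1 no longer passed in the combination against panobinostat without either panobinostat library (-0.17 and -0.27), either combination library (-0.24 and -0.20) or either vehicle library (-0.22), or with no filter on low values (-0.22). PPT1 did not pass in panobinostat against vehicle without panobinostat replicate 1 (-0.42) or either vehicle library (-0.49 and -0.48). The PPT1 call in the combination against trametinib ended without trametinib replicate 2 (0.27), either combination library (0.35 and 0.32) or either vehicle library (0.33), or with edgeR (0.30). PSAP no longer passed in panobinostat against vehicle without panobinostat replicate 1 (0.30) or vehicle replicate 1 (0.26). NPC1 did not pass in trametinib against vehicle without either vehicle library (0.36 and 0.27). The NPC1 call in panobinostat against vehicle ended without panobinostat replicate 2 (0.31) or either vehicle library (0.44 and 0.35). NPC1 no longer passed in the combination against vehicle without either combination library (0.35 and 0.36) or either vehicle library (0.40 and 0.31). NPC2 did not pass in the combination against trametinib without combination replicate 1 (0.36).

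Among the 6 membrane proteins, 2 rose, 0 fell and 4 did not pass with trametinib, 2 rose, 0 fell and 4 did not pass with panobinostat, and 3 rose, 0 fell and 3 did not pass with the combination. All genes stood at 23.7% higher and 27.4% lower with trametinib, 15.0% higher and 15.6% lower with panobinostat and 24.5% higher and 25.5% lower with the combination. LAMP1 and LAMP2 are the abundant glycoproteins that line the lysosomal membrane. LAMP2 was at 3289 and 3289 with trametinib, 3221 and 3123 with panobinostat, 4741 and 4509 with the combination and 2713 and 2614 in vehicle. The combination libraries were the highest, and the single-drug libraries lay between them and vehicle. LAMP2 rose by 0.30 ± 0.059 with trametinib, 0.25 ± 0.059 with panobinostat and 0.80 ± 0.059 with the combination (limma adjusted p = 0.00198, 0.0105 and 4.91e-06), and the combination was also above trametinib by 0.49 ± 0.059 and above panobinostat by 0.54 ± 0.059. LAMP1 was at 3823 and 3543 with trametinib, 3407 and 3619 with panobinostat, 4031 and 3738 with the combination and 3346 and 3137 in vehicle. All 6 libraries given a drug lay above vehicle and overlapped in part. LAMP1, with 2 CLEAR cores, passed only with the combination, at 0.26 ± 0.071 (limma adjusted p = 0.0122), and its trametinib value of 0.18 ± 0.071 missed the threshold at an adjusted p of 0.0534. The trametinib value passed with edgeR or TMM scaling (0.20), with DESeq2 (0.19) and without trametinib replicate 2 (0.24). CD68 is a relative of the LAMP proteins. CD68 was at 841 and 762 with trametinib, 1417 and 1497 with panobinostat, 935 and 858 with the combination and 650.0 and 610.4 in vehicle. Panobinostat libraries lay above all others. It rose by 0.35 ± 0.097 with trametinib, 1.21 ± 0.097 with panobinostat and 0.51 ± 0.097 with the combination (limma adjusted p = 0.0147, 3.64e-05 and 0.00186), and in the combination it was below panobinostat (-0.70 ± 0.097, limma adjusted p = 0.000757). The 3 macrophage markers in the table summed to 1.01 to 4.08 in the panobinostat libraries, against 4.21 to 4.75 in vehicle.

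MCOLN1 is a cation channel that releases lysosomal calcium, and CLN3 a membrane protein altered in Batten disease; both carry the CLEAR core. MCOLN1 was at 417 and 336 with trametinib, 269 and 208 with panobinostat, 244 and 263 with the combination and 305 and 295 in vehicle. CLN3 was at 636 and 480.2 with trametinib, 384 and 319.6 with panobinostat, 358 and 239 with the combination and 409 and 391 in vehicle. In both the trametinib libraries were the highest, and neither passed against vehicle in any arm by limma with the 4 group means alone. With the replicate number added as a block, CLN3 passed by limma with trametinib (0.47) and with the combination (-0.45) against vehicle. CLN3 passed in trametinib against vehicle with DESeq2 (0.48), and both passed there without trametinib replicate 2 (0.48 for MCOLN1 and 0.67 for CLN3). CLN3 also passed in the combination against vehicle without either trametinib library (-0.45) or combination replicate 1 (-0.74). The combination lay below trametinib, at -0.56 ± 0.18 for MCOLN1 and -0.92 ± 0.21 for CLN3 (limma adjusted p = 0.0414 and 0.00985). CD63 was at 6972 and 7983 with trametinib, 7799 and 8074 with panobinostat, 7158 and 6768 with the combination and 7683 and 7795 in vehicle. CD63, the tetraspanin of lysosomes and melanosomes, passed in no comparison by limma, with changes from -0.15 ± 0.068 to 0.04 ± 0.068 against vehicle. In the combination against panobinostat it passed with TMM scaling or edgeR (-0.20), with DESeq2 (-0.19) and without either trametinib library (-0.19), and in the combination against vehicle with DESeq2 (-0.16) and without either trametinib library (-0.15). Without trametinib replicate 2 it also passed in trametinib against vehicle (-0.15), and without trametinib replicate 1 in the combination against trametinib (-0.20) and in the interaction (-0.23). The LAMP1 call in the combination against vehicle ended without combination replicate 1 (0.21) or vehicle replicate 2 (0.21). LAMP2 no longer passed in panobinostat against vehicle without panobinostat replicate 1 (0.23) or vehicle replicate 2 (0.23). CD68 did not pass in trametinib against vehicle without vehicle replicate 2 (0.30). The MCOLN1 call in the combination against trametinib ended without trametinib replicate 1 (-0.41), either combination library (-0.51 and -0.62) or either vehicle library (-0.56), or with no filter on low values (-0.56). CLN3 no longer passed in the combination against trametinib without combination replicate 2 (-0.62).

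The V-ATPase has a membrane sector, V0, through which protons pass, and a cytosolic sector, V1, that splits ATP. Of 7 subunits tested, 4 rose, 0 fell and 3 did not pass with trametinib, 1 rose, 0 fell and 6 did not pass with panobinostat, and 2 rose, 0 fell and 5 did not pass with the combination. The 1 of 7 with panobinostat and the 2 of 7 with the combination are near the 15.0% and 24.5% of all genes that rose, and with trametinib 23.7% of all genes did. ATP6V0A1, the a1 subunit of V0, passed in every arm. ATP6V0A1 was at 2572 and 2277 with trametinib, 2821 and 2827 with panobinostat, 3123 and 3256 with the combination and 1952 and 1872 in vehicle. The groups did not overlap, with the combination highest, and it rose by 0.34 ± 0.073 with trametinib, 0.56 ± 0.073 with panobinostat and 0.74 ± 0.073 with the combination (limma adjusted p = 0.00383, 0.000541 and 3.22e-05). ATP6V0D1, the d1 subunit of V0 and a carrier of the CLEAR core, passed against vehicle only with trametinib. ATP6V0D1 was at 2049 and 1694 with trametinib, 948 and 828 with panobinostat, 1104 and 999 with the combination and 1034 and 1058 in vehicle. Both trametinib libraries lay above the other 6, with a rise of 0.83 ± 0.11 with trametinib (limma adjusted p = 0.000231). The combination libraries lay on either side of vehicle (0.01 ± 0.11, not passing) and below trametinib, at -0.83 ± 0.11 (limma adjusted p = 0.000569). In panobinostat against vehicle ATP6V0D1 passed without either trametinib library (-0.24).

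ATP6V1C1 and ATP6V1B2 are the C1 and B2 subunits of V1. ATP6V1C1 was at 3276 and 4182 with trametinib, 2554 and 2525 with panobinostat, 2268 and 2325 with the combination and 2539.8 and 2534 in vehicle. ATP6V1B2 was at 1676 and 1651 with trametinib, 1506 and 1414 with panobinostat, 1373 and 1409 with the combination and 1352 and 1361 in vehicle. The trametinib libraries were the highest for both, and they rose by 0.54 ± 0.10 and 0.29 ± 0.072 with trametinib (limma adjusted p = 0.00147 and 0.00769), with no other arm passing against vehicle. Without either trametinib library ATP6V1C1 passed in the combination against vehicle (-0.14). Against trametinib, the combination was at -0.69 ± 0.10 for ATP6V1C1 and -0.26 ± 0.072 for ATP6V1B2. ATP6V1A was at 1175 and 1271 with trametinib, 1515 and 1462 with panobinostat, 1406 and 1371 with the combination and 1411 and 1207 in vehicle. ATP6V1H was at 1116 and 1605 with trametinib, 1607 and 1613 with panobinostat, 1441 and 1237 with the combination and 1275 and 1223 in vehicle. The catalytic subunit ATP6V1A and the regulatory subunit ATP6V1H passed in no comparison by limma, and the trametinib replicates of ATP6V1H lay on either side of vehicle. ATP6V1H passed in panobinostat against vehicle with DESeq2 (0.36) and without either trametinib library (0.37), and in the combination against panobinostat without either trametinib library (-0.27). Without trametinib replicate 1 it passed in trametinib against vehicle (0.36), in the combination against trametinib (-0.27) and in the interaction (-0.63), and without trametinib replicate 2 the combination against trametinib passed at 0.26. ATP6AP1 was at 1337 and 1442 with trametinib, 1289.6 and 1221 with panobinostat, 1424 and 1488 with the combination and 1252 and 1250.1 in vehicle. The accessory protein ATP6AP1 passed only with the combination, at 0.22 ± 0.079 (limma adjusted p = 0.0432). Without trametinib replicate 1 it passed in trametinib against vehicle (0.20). ATP6V0D2, the d2 isoform known from osteoclasts and kidney, had 3 reads in panobinostat replicate 1, 1 in vehicle replicate 2 and 0 in the other 6 libraries. The ATP6V0D1 call in the interaction ended without panobinostat replicate 1 (-0.49), either combination library (-0.66 and -0.52) or either vehicle library (-0.57 and -0.60). ATP6V1B2 no longer passed in trametinib against vehicle without either vehicle library (0.29 and 0.30). ATP6V1B2 did not pass in the combination against trametinib without either combination library (-0.24 and -0.28) or either vehicle library (-0.26). The ATP6V1B2 call in the interaction ended without either panobinostat library (-0.32 and -0.41), either combination library (-0.34 and -0.38) or either vehicle library (-0.36 and -0.37). ATP6V1C1 no longer passed in the interaction without combination replicate 1 (-0.67). ATP6AP1 did not pass in the combination against vehicle without either panobinostat library (0.22), either combination library (0.25 and 0.19) or either vehicle library (0.22), with TMM scaling (0.20), or with edgeR (0.20).

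The combination was then set against each single drug. Against trametinib, 6 of the 34 were higher and 10 lower in the combination, where 17.6% of all genes were higher and 15.2% lower. The 6 that were higher were GLA, LIPA, PPT1, NPC2, LAMP2 and ATP6V0A1. The 10 that were lower were CTSD, TPP1, HEXA, SGSH, ASAH1, MCOLN1, CLN3, ATP6V0D1, ATP6V1B2 and ATP6V1C1. LIPA was higher by 0.86 ± 0.095 and TPP1 was at -0.54 ± 0.052 (limma adjusted p = 0.000168 and 8.21e-05). HEXA was at -0.74 ± 0.10 and ASAH1 at -0.52 ± 0.065 (limma adjusted p = 0.00056 and 0.000342). Against panobinostat, 9 were higher and 3 lower in the combination, where 10.9% and 13.1% of all genes were. The 9 were TFE3, CTSA, CTSD, TPP1, GAA, HEXA, PSAP, NPC2 and LAMP2, and the 3 were CTSZ, ASAH1 and CD68. NPC2 was higher by 0.67 ± 0.10, TPP1 by 0.61 ± 0.052 and PSAP by 0.41 ± 0.067 (limma adjusted p = 0.00117, 4.15e-05 and 0.0019), while CTSZ was at -0.85 ± 0.079 (limma adjusted p = 6.27e-05). Of the 7 V-ATPase subunits 0 passed against panobinostat by limma, edgeR or DESeq2 with all 8 libraries. Of them 2, ATP6V0A1 and ATP6AP1, had an unadjusted limma p under 0.05, with 0.18 ± 0.073 and 0.21 ± 0.079. In the fits without either trametinib library, ATP6V0A1 (0.18), ATP6V0D1 (0.25) and ATP6AP1 (0.21) passed as higher and ATP6V1H (-0.27) as lower. Without trametinib replicate 1 or 2, 14 were higher and 5 lower against panobinostat in either fit, where 20.7% and 22.4% of all genes were. Against trametinib, 6 were lower without either combination library or either vehicle library, beside 9.31% to 12.0% of all genes.

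**Figure D3:**
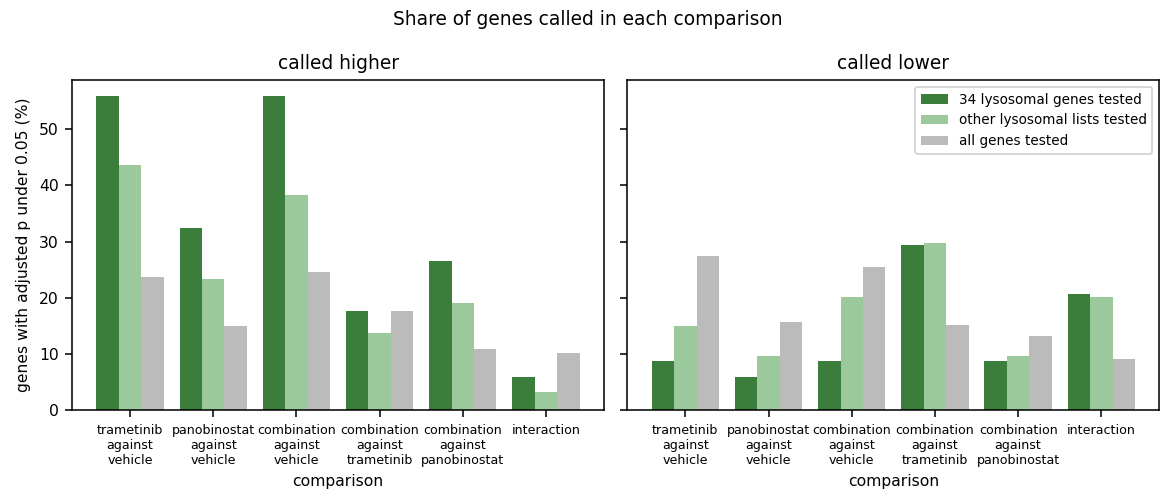
Percent of tested genes called higher (left panel) and lower (right panel) at an adjusted p under 0.05 in each of the 6 comparisons, for the 34 lysosomal genes, 94 genes of other lysosomal lists and all 13320 genes. In trametinib against vehicle 55.9% of the 34 were called higher, against 23.7% of all genes.

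The interaction is the change with the combination minus the sum of both single-drug changes, in log2, so a negative value means that the combination lay below that sum. Of the 34 genes, 2 passed with a positive value and 7 with a negative one, where 10.2% and 9.04% of all genes did. The median was -0.23, against 0.08 over all genes. TPP1 had -1.46 ± 0.074 (limma adjusted p = 6.61e-06), with single-drug changes adding up to 3.00 and a combination change of 1.54. CD68 had -1.05 ± 0.14 (limma adjusted p = 0.000841), with a sum of 1.55 and a combination change of 0.51. HEXA (-0.77 ± 0.14), ATP6V1C1 (-0.69 ± 0.14), ATP6V0D1 (-0.59 ± 0.16), CTSB (-0.37 ± 0.085) and ATP6V1B2 (-0.36 ± 0.10) were the other negative values that passed. GLA (1.13 ± 0.22) and PPT1 (0.82 ± 0.14), both lower with trametinib alone, were the positive ones (limma adjusted p = 0.00723 and 0.00355). For TFEB (-0.70 ± 0.55) and LIPA (-0.30 ± 0.13) the departure did not pass, with sums of 2.95 and 1.59. LIPA had -0.34 without trametinib replicate 1, and whether it passes depends on which libraries are in the fit. Without trametinib replicate 2, 4 passed as positive and 14 as negative, beside 19.2% and 16.0% of all genes, and without trametinib replicate 1, 11 as negative, beside 19.0%. Positive values numbered 1 without vehicle replicate 2 (4.77% of all genes), and 4 passed as negative without panobinostat replicate 1, either combination library or either vehicle library, where 5.18% to 5.86% of all genes did. DESeq2 also called CTSZ (-0.34), PSAP (-0.27), CLN3 (-0.71) and LAMP2 (0.24). CTSB, GLA, ATP6V0D1, ATP6V1B2 and ATP6V1C1 are the calls that ended in such fits, with the values given above, and TPP1, HEXA, PPT1 and CD68 passed in all 8.

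**Figure D4:**
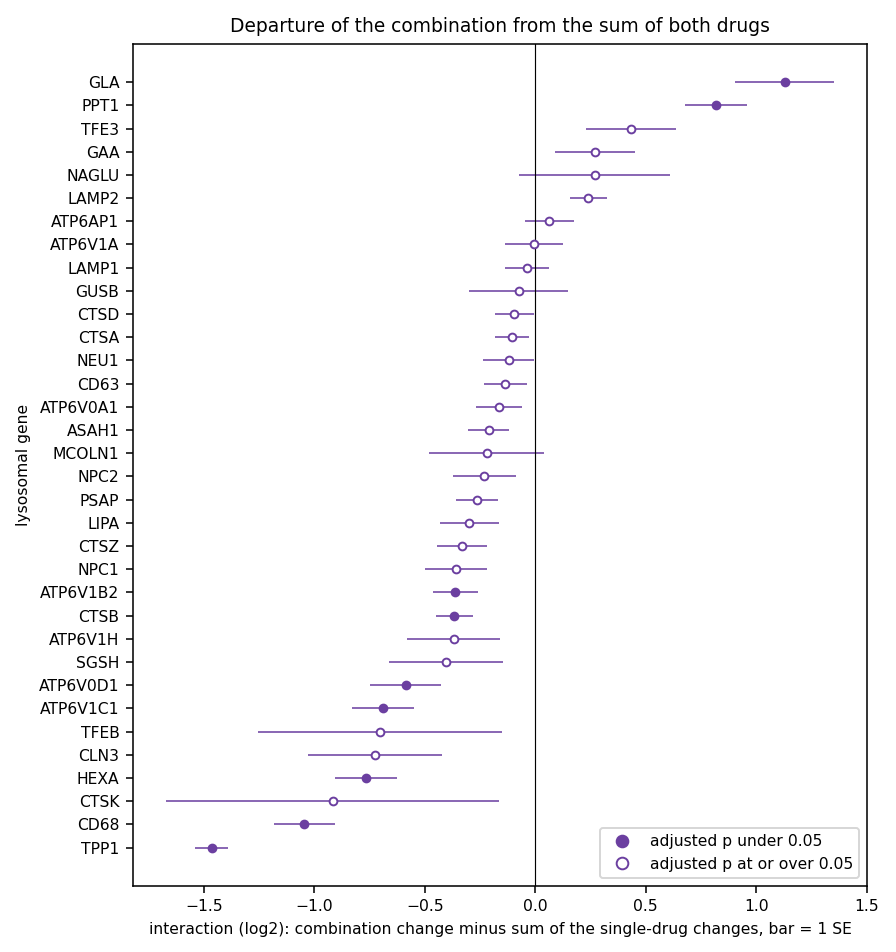
Interaction of the 34 tested lysosomal genes (log2, combination change minus the sum of the single-drug changes), ordered by value, with bars of 1 SE. TPP1 and CD68 have the lowest values, GLA and PPT1 the highest, and filled points passed at an adjusted p under 0.05.

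Other lysosomal genes, in 5 lists with 97 entries of which 94 were tested, also had more rises than falls. Over all of them, 41 rose and 14 fell with trametinib (43.6% and 14.9%), 22 and 9 with panobinostat, and 36 and 19 with the combination. All genes stood beside them at 23.7% higher and 27.4% lower with trametinib, 15.0% higher and 15.6% lower with panobinostat and 24.5% higher and 25.5% lower with the combination. In fits that left out 1 library, some of these counts moved by more than 1.5 times. More of these genes rose and fell with panobinostat without either trametinib library, and fewer did without panobinostat replicate 2. Fewer fell in each arm without either vehicle library, and fewer fell with the combination without combination replicate 1. The shares of all genes moved in the same direction in each of these fits. Whether these counts moved more than those shares was not tested, so the moved counts are not read as a result about these genes. Of 33 further hydrolases and activators, 18 rose and 3 fell with trametinib, 12 and 1 with panobinostat, and 19 and 5 with the combination, against vehicle. The cysteine protease CTSF changed by 1.94 ± 0.13 with trametinib, 0.92 ± 0.13 with panobinostat and 1.51 ± 0.13 with the combination (limma adjusted p = 2.22e-06, 0.000782 and 1.24e-05), and HGSNAT, an enzyme of heparan sulfate breakdown, by 1.40 ± 0.076 with trametinib, 0.54 ± 0.076 with panobinostat and 1.11 ± 0.076 with the combination (limma adjusted p = 6.51e-07, 0.000796 and 3.24e-06). MAN2B1, the acid alpha-mannosidase, changed by 0.93 ± 0.082 with trametinib, 0.55 ± 0.082 with panobinostat and 1.06 ± 0.082 with the combination, and the asparaginyl endopeptidase LGMN by 0.55 ± 0.083 with trametinib, 0.69 ± 0.083 with panobinostat and 0.45 ± 0.083 with the combination. Of 13 further V-ATPase genes, 6 rose and 1 fell with trametinib, 4 and 1 with panobinostat, and 5 and 2 with the combination, against vehicle. ATP6V0E2, an isoform of the e subunit, was at 209 and 357 with trametinib, 1002 and 992 with panobinostat, 1138 and 1144 with the combination and 348 and 308 in vehicle. It rose by 1.60 ± 0.21 with panobinostat and 1.80 ± 0.21 with the combination (limma adjusted p = 0.000529 and 8.62e-05) and did not pass with trametinib (-0.26 ± 0.21). The trametinib libraries of ATP6V0E2 lay on either side of vehicle. Without trametinib replicate 2 its trametinib value was -0.65 and its interaction 0.84, so whether these pass depends on which libraries are in the fit. ATP6V1F, the F subunit of V1, changed by 0.96 ± 0.081 with trametinib, 0.28 ± 0.081 with panobinostat and 0.47 ± 0.081 with the combination. The proton channel subunit ATP6V0C rose by 0.38 ± 0.056 with trametinib and 0.19 ± 0.056 with panobinostat and has pseudogene copies, and the accessory protein ATP6AP2 rose by 0.31 ± 0.077 with trametinib, 0.54 ± 0.077 with panobinostat and 0.81 ± 0.077 with the combination. The ATP6V0C call in panobinostat against vehicle ended without panobinostat replicate 2 (0.12), either combination library (0.19) or either vehicle library (0.20 and 0.18), or with no filter on low values (0.19). ATP6V1F no longer passed in panobinostat against vehicle without either panobinostat library (0.26 and 0.31) or either vehicle library (0.24 and 0.32). ATP6AP2 did not pass in trametinib against vehicle without vehicle replicate 2 (0.28).

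Of 19 further membrane proteins, 6 rose and 3 fell with trametinib, 3 and 3 with panobinostat, and 6 and 4 with the combination, against vehicle. The panobinostat counts are near the shares of all genes (15.0% higher and 15.6% lower), and all genes stood at 23.7% higher and 27.4% lower with trametinib and 24.5% higher and 25.5% lower with the combination. SLC17A5, the sialic acid exporter, rose by 0.47 ± 0.15 with trametinib, 0.75 ± 0.15 with panobinostat and 1.43 ± 0.15 with the combination (limma adjusted p = 0.0282, 0.00561 and 5.34e-05), and SCARB2, a membrane protein that sorts cargo to lysosomes, by 0.67 ± 0.097 with panobinostat and 0.80 ± 0.097 with the combination. LAPTM4A changed by 0.95 ± 0.078 with trametinib, 0.35 ± 0.078 with panobinostat and 0.71 ± 0.078 with the combination, while LAPTM4B changed by -1.29 ± 0.10 with trametinib and -0.43 ± 0.10 with the combination. CLCN7 was at 1916 and 1995 with trametinib, 898 and 759 with panobinostat, 609.9 and 867 with the combination and 1393 and 1546 in vehicle. This chloride transporter was higher with trametinib by 0.41 ± 0.15 and changed by -0.83 ± 0.15 with panobinostat and -1.01 ± 0.15 with the combination. Of 10 sorting genes, 4 rose and 0 fell with trametinib, 1 and 0 with panobinostat, and 3 and 2 with the combination, against vehicle. The adaptor GGA2 rose by 1.45 ± 0.083 with trametinib and 0.67 ± 0.083 with the combination and the sorting receptor SORT1 by 0.57 ± 0.065 with trametinib and 0.42 ± 0.065 with the combination. M6PR and IGF2R are the mannose 6-phosphate receptors that carry hydrolases from the Golgi apparatus. M6PR changed by -0.80 ± 0.095 with the combination, and IGF2R by 0.42 ± 0.052 with trametinib, 0.16 ± 0.052 with panobinostat and -0.18 ± 0.052 with the combination. Of 19 genes of the MiT/TFE family and nutrient sensing, 7 rose and 7 fell with trametinib, 2 and 4 with panobinostat, and 3 and 6 with the combination, against vehicle. MITF was at 8362 and 8592 with trametinib, 5343 and 5099 with panobinostat, 4184 and 4336 with the combination and 4158 and 4070.1 in vehicle. MITF rose by 1.04 ± 0.054 with trametinib and 0.34 ± 0.054 with panobinostat (limma adjusted p = 4.74e-07 and 0.00144) and had 0.05 ± 0.054 with the combination, which did not pass, for an interaction of -1.34 ± 0.076 (limma adjusted p = 1.05e-05). MLST8, a subunit of both mTOR complexes, changed by -0.40 ± 0.14 with trametinib, -1.12 ± 0.14 with panobinostat and -1.54 ± 0.14 with the combination. FNIP2, a partner of folliculin, changed by -0.41 ± 0.084 with trametinib and -0.76 ± 0.084 with the combination, and YWHAG, a 14-3-3 protein, by -0.61 ± 0.055 with trametinib and -0.16 ± 0.055 with the combination. The SLC17A5 call in trametinib against vehicle ended without either vehicle library (0.47 and 0.48). SLC17A5 no longer passed in panobinostat against vehicle without panobinostat replicate 1 (0.69) or vehicle replicate 1 (0.75). LAPTM4A did not pass in panobinostat against vehicle without panobinostat replicate 2 (0.33) or vehicle replicate 2 (0.29). The LAPTM4B call in the combination against vehicle ended without combination replicate 2 (-0.42) or vehicle replicate 1 (-0.31). CLCN7 no longer passed in trametinib against vehicle without either panobinostat library (0.41) or either vehicle library (0.34 and 0.49), or with no filter on low values (0.41). IGF2R did not pass in panobinostat against vehicle without either panobinostat library (0.18 and 0.14), either combination library (0.16) or either vehicle library (0.14 and 0.19), or with no filter on low values (0.16). The IGF2R call in the combination against vehicle ended without combination replicate 1 (-0.15) or either vehicle library (-0.20 and -0.15). MLST8 no longer passed in trametinib against vehicle without trametinib replicate 1 (-0.31), either combination library (-0.40) or either vehicle library (-0.42 and -0.37), or with no filter on low values (-0.40). YWHAG did not pass in the combination against vehicle without either panobinostat library (-0.16), either combination library (-0.17 and -0.15) or either vehicle library (-0.15 and -0.17).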

How the data were processed

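Per the labels' protocols, total RNA of 92.1 cells went into a NuGEN Ovation library kit designed for FFPE material. Per the submitters' processing notes, TopHat2 2.0.13, Cufflinks 2.2.1 and DESeq2 were used, and build hs37d5 is named for 4 of the 8 libraries; for the counter and the annotation, the sources used here name nothing. The deposited signal values are whole multiples of 1 step per library (100% of values within 1e-06), as gene counts divided by a size factor would be. Changes were tested with limma 3.58.1 in R 4.3.3, with log2(value + 1) as input and a trended prior, all 8 libraries in 1 fit with 4 group means (4 residual and 5.32 prior degrees of freedom), over genes with a mean of at least 10, with Benjamini-Hochberg adjustment. It was run on simulated counts with changes in the trametinib arm only and the same spread of a gene in every group. That simulation does not cover a group whose libraries vary more than the others. Alternatives were a pseudocount of 5, no filter, TMM scaling, edgeR 4.0.16 and DESeq2 1.42.0 on the reads recovered from the steps (in trametinib against vehicle edgeR called 3301 genes higher and 3482 lower, and limma 3153 and 3644), the replicate number as a block, and leaving out each library. The genes and lists were chosen with earlier results of these data known. All 36 genes are described, those passing in no comparison with their values too; of the other lists up to 2 genes with the smallest adjusted p in each comparison with vehicle are named, except 1 that is not reported here. Older symbols were matched through RefSeq. Promoter sequences are RefSeq's (GRCh38.p14) and were matched by symbol.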

Additional observations from a re-analysis of the deposited data

Results flagged for a closer look

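For 9 lysosomal genes the effect of 1 drug differed with and without the other, by the interaction term of the limma fit over all 8 libraries. In log2, the values were -1.46 for TPP1, -1.05 for CD68, -0.77 for HEXA, -0.69 for ATP6V1C1, -0.59 for ATP6V0D1, -0.37 for CTSB and -0.36 for ATP6V1B2, where the combination lay below the sum of the single-drug changes. They were 1.13 for GLA and 0.82 for PPT1, where it lay above. The combination dose of each drug is assumed, and its part in these values was not tested. Over all genes tested, 10.2% passed with a positive and 9.04% with a negative interaction. The calls for CTSB, GLA, ATP6V0D1, ATP6V1B2 and ATP6V1C1 ended in at least 1 fit that left out a library.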

How the results depend on the processing

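Leaving out 1 library at a time gave, among the 34 tested genes, 13 to 22 higher and 3 to 4 lower in trametinib against vehicle, 7 to 15 and 0 to 4 in panobinostat against vehicle, and 13 to 19 and 3 to 6 in the combination against vehicle. The same fits gave 4 to 6 and 6 to 11 in the combination against trametinib, 6 to 14 and 2 to 5 in the combination against panobinostat, and 1 to 4 and 4 to 14 in the interaction. ATP6V1H changed sign in the combination against trametinib, at 0.26 and passing without trametinib replicate 2 and at -0.27 without trametinib replicate 1, and it did not pass with all libraries. In the fits without 1 library, the shares of all genes called moved too, as given above for several of them. Whether the ranges of the 34 genes differ from those shifts was not tested. With a pseudocount of 5, no filter, TMM scaling, edgeR, DESeq2 or the replicate block, every count of members stayed within 1.5 times its value and no call changed direction. Of 204 tests of members, the number that crossed the threshold was 0 with a pseudocount of 5, 8 with no filter, 4 with TMM scaling, 5 with edgeR and 11 with DESeq2. Deviations of same-numbered libraries correlated between -0.0235 and 0.0218, so no deviation shared by replicate number was seen. These values do not tell whether same-numbered libraries were handled together. With the replicate block, trametinib against vehicle had 20 members higher and 3 lower, and 6 of the 204 tests crossed the threshold. Without the block these counts were 19 and 3, and the share of all genes with it is not given here. Calls ended for CTSA (combination against panobinostat), CTSZ (panobinostat against vehicle), ATP6AP1 (combination against vehicle) and ATP6V1B2 (interaction). CLN3 newly passed against vehicle with trametinib and with the combination. Low read numbers limit TFEB, CTSK, CTSS and ATP6V0D2. The libraries carry no molecular identifiers that the labels name, so read numbers bound counting error only.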
